A study of Mus musculus with 22 samples.

Results

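Input RNA of mouse embryonic stem cells (ESCs) lacking both NF90 and NF110 was compared with input RNA of ESCs lacking NF110 alone, to describe what differs when NF90 is lost on top of NF110. The genes described were those with an FPKM (fragments per kilobase of transcript, scaled to the mapped fragments of the library) of at least 1 in at least 3 of the 6 input libraries. They numbered 12246 of the 22330 genes in the table, or 54.8%. Of these, 11430 were above 1 FPKM in all 6 inputs, 15 entered only through the NF90+NF110 KO libraries and 18 only through the NF110 KO libraries. Across the 10 genes just inside the limit the third-highest FPKM of the 6 inputs was at most 1.006, and across the 10 just outside it was at least 0.996.

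The series holds 22 libraries. The groups used here were NF90+NF110 KO, NF110 KO and NF90/NF110 WT ESCs, each with 3 input libraries and 3 libraries of RNA immunoprecipitated (IP) with an antibody against NF90/NF110, and NF45 KO and NF45 WT ESCs with 2 libraries each. According to the labels, all of these cells were grown in 15% FBS with LIF, 1 µM of the MEK inhibitor PD0325901 and 3 µM of the GSK3 inhibitor CHIR99021, so KO and WT cells shared both inhibitors. The design text calls the immunoprecipitations biological triplicates with matched inputs, but the labels do not say whether replicates were separate clones. The p-values therefore measure only the spread between these libraries. The inputs and IPs were made with a ribosomal RNA depletion kit, and the NF45 libraries with a poly(A) selection kit.

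NF90 and NF110 are related proteins with double-stranded RNA-binding domains, and NF45 is the product of Ilf2. Each of NF90 and NF110 forms a stable dimer with NF45. They are known for roles in mRNA stability and translation, in microRNA processing and in transcription. In ESCs cultured with MEK and GSK3 inhibitors, signalling that drives differentiation is held low and cells remain in the naive pluripotent state.

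The recovered gene-assigned reads per input numbered 10083110 to 11819424 in NF90+NF110 KO, 9532048 to 10894364 in NF110 KO and 10762923 to 11927305 in WT. All 8 embryonic stem cell markers were measured in every KO input, between 62.0 and 2211 FPKM, with Pou5f1 between 736 and 883 FPKM. Of 9 fibroblast or feeder cell markers 2 were measured, Thy1 and Pdgfrb, while Postn and Twist2 were at 0 in all 6 KO inputs and Col3a1 was at most 0.0167 FPKM. The summed FPKM of the 4 measured genes of a longer list of 12 fibroblast genes was 267 to 430.3 in NF90+NF110 KO inputs and 331 to 388 in NF110 KO inputs. Most of that sum was Fn1 alone, at 260 to 420 FPKM in NF90+NF110 KO inputs and 323 to 380 FPKM in NF110 KO inputs. Of the trophectoderm and primitive endoderm markers, 5 each, Eomes and Gata4 alone reached the limit, at no more than 4.39 and 4.48 FPKM. Differences in RNA per cell and in the share of cells of a type cannot be told apart in such bulk RNA.

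Libraries of the same genotype stood apart on chromosomes 6 and Y. The median log2 deviation of chromosome 6 genes from their mean over the 9 inputs was -0.21, 0.25 and -0.21 in NF90+NF110 KO inputs 1, 2 and 3, against 0.25, 0.23 and -0.19 in NF110 KO inputs 1, 2 and 3. In WT inputs 1, 2 and 3 it was 0.26, -0.15 and -0.21. A high level was therefore seen in 1 of 3 NF90+NF110 KO libraries and in 2 of 3 NF110 KO libraries, and the 578 chromosome 6 genes had a median log2 fold change of -0.16 between these genotypes, against -0.01 over all genes. The comparison of the KO inputs was therefore also fitted with the chromosome 6 level as a term, and its differences were also computed within the 3 libraries of high and the 3 of low level. Neither was done for the IP or NF45 libraries. On chromosome Y, the summed FPKM of the measured genes Ddx3y, Eif2s3y and Uty was 0, 0.0368 and 11.4 in NF90+NF110 KO inputs 1, 2 and 3, against 8.39, 9.69 and 13.4 in the NF110 KO inputs.

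**Figure D1:**
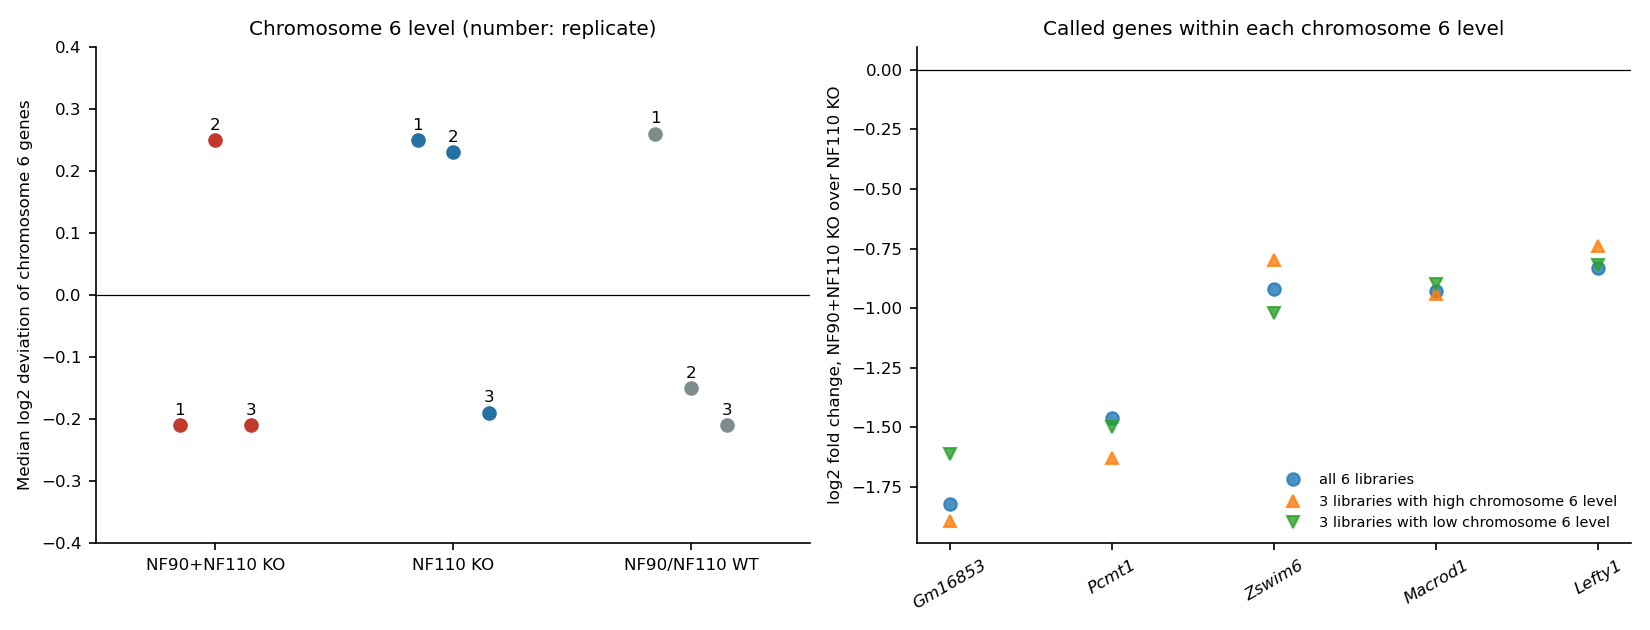
Left, median log2 deviation of chromosome 6 genes in each input library, numbered by replicate. Right, log2 fold change of 5 called genes, NF90+NF110 KO over NF110 KO, in all 6 libraries and within the 3 libraries at each chromosome 6 level. NF90+NF110 KO input 2 sits at 0.25 with NF110 KO inputs 1 and 2. Each level holds 1 library of one genotype and 2 of the other. In Gm16853, Pcmt1, Zswim6, Macrod1 and Lefty1 the KO genotypes did not overlap. Their negative sign at both levels was therefore fixed in advance and says nothing about the chromosome 6 level.

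The genotypes differed in 6 genes at the threshold used. In NF90+NF110 KO inputs Pcmt1, Zswim6, Macrod1 and Lefty1 fell to between 0.344 and 0.558 times their NF110 KO level, and the non-coding Gm16853 was lower by FPKM but not by read counts. The test was limma on log2(FPKM + 1) over the 9 inputs with Benjamini-Hochberg adjustment, and a gene was called at an adjusted p under 0.05. It called 6 of 12246 genes, which is 0.049%, with 1 higher (0.00817%) and 5 lower (0.0408%). An unadjusted p under 0.05 was reached by 1278 genes, 10.4% of those tested, of which 541 were higher (4.42%) and 737 lower (6.02%). The 3 libraries of one genotype did not overlap the 3 of the other in 1810 genes (14.8%), with 775 higher (6.33%) and 1035 lower (8.45%). Fold changes are on the log2(FPKM + 1) scale, which understates the change of weakly expressed genes.

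**Figure D2:**
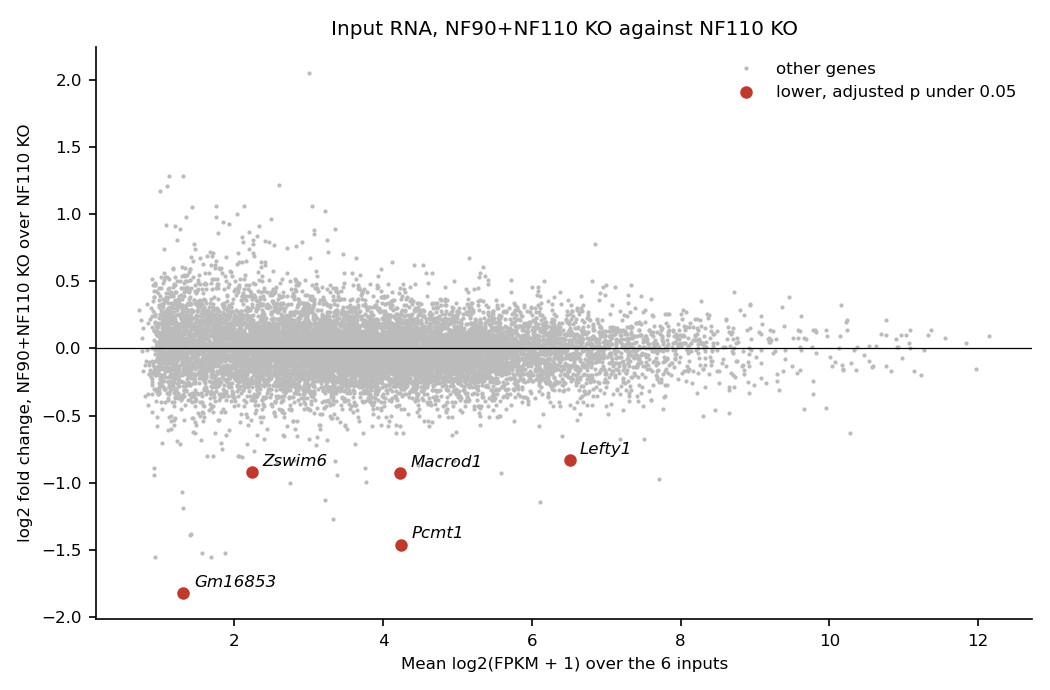
Log2 fold change of NF90+NF110 KO over NF110 KO input RNA (y axis) against the mean log2(FPKM + 1) of the 6 inputs (x axis) for the genes tested. Red points are the 5 genes called lower, and the gene called higher is not drawn.

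Gm16853 is annotated as a long non-coding RNA gene on chromosome 9 from 21405242 to 21411720 (GRCm38.p6, the assembly behind mm10), on the minus strand. Its FPKM was 0.353, 0.366 and 0.258 in NF90+NF110 KO inputs, against 3.48, 4.72 and 2.98 in NF110 KO inputs and 0.763, 0.541 and 0.520 in WT inputs. On this scale NF110 KO libraries were the high ones and the groups did not overlap, with a log2 fold change of -1.82 (SE 0.15, adjusted p = 0.00372, limma). Gm16853 was among the genes described only through the NF110 KO libraries, where it is high, so a difference on this scale was built into its selection and its test supports nothing further. The reads recovered from the normalised count table were 4, 4 and 1 in NF90+NF110 KO inputs, against 0, 0 and 0 in NF110 KO inputs and 1, 1 and 3 in WT inputs. The deposited tables thus differ in direction for Gm16853, whose count-based log2 fold change was 4.62 by edgeR's quasi-likelihood test (adjusted p = 0.40). The labels do not state how the counting treated strand and overlapping genes, so the level of Gm16853 is uncertain.

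Pcmt1 encodes an enzyme that repairs damaged aspartate residues in proteins, and lies on chromosome 10 from 7627845 to 7681337. Its FPKM was 11.7, 8.57 and 11.3 in NF90+NF110 KO inputs, against 27.4, 30.1 and 34.3 in NF110 KO inputs. WT inputs had 43.1, 40.3 and 40.6 FPKM, so the groups did not overlap and NF90+NF110 KO was lowest, NF110 KO between, and WT highest. The means were 10.5 ± 1.69 FPKM in NF90+NF110 KO and 30.6 ± 3.51 FPKM in NF110 KO (SD, n = 3 each), a log2 fold change of -1.46 (SE 0.12, adjusted p = 0.00372, limma). Between NF90+NF110 KO and WT inputs limma called 26 of 12246 genes (0.212%), and between NF110 KO and WT inputs it called 1 (0.00817%), Gm16853. Against WT, Pcmt1 fell in NF90+NF110 KO cells by 1.89 on the log2 scale (adjusted p = 0.000571), whereas the NF110 KO value of -0.43 had an adjusted p of 0.175 (limma). The reads behind these values were 188 to 259 per library in NF90+NF110 KO and 528 to 625 in NF110 KO. Its relatives on the protein repair list, Pcmtd1 and Pcmtd2, were not called.

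Zswim6, a gene for a SWIM-type zinc finger protein, lies on chromosome 13 from 107724617 to 107890064. It had 2.29, 2.62 and 2.39 FPKM in NF90+NF110 KO inputs, against 4.87, 5.83 and 5.76 FPKM in NF110 KO inputs and 6.87, 7.21 and 6.06 FPKM in WT inputs. All 3 NF90+NF110 KO libraries lay below every other library, and the NF110 KO libraries lay below those of WT. Its log2 fold change was -0.92 (SE 0.11, adjusted p = 0.0236) between the KO genotypes and -1.17 between NF90+NF110 KO and WT (adjusted p = 0.00778, limma). Between NF110 KO and WT it was -0.25 (adjusted p = 0.286).

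Macrod1 encodes a mitochondrial enzyme that removes ADP-ribose from proteins, and lies on chromosome 19 from 7056728 to 7198062. Its FPKM was 12.2, 12.6 and 12.7 in NF90+NF110 KO inputs, against 22.04, 28.8 and 24.1 in NF110 KO inputs and 20.1, 17.3 and 18.4 in WT inputs. Here WT lay between the KO genotypes and the groups did not overlap. Macrod1 fell by 0.93 on the log2 scale (SE 0.10, adjusted p = 0.0199, limma) in NF90+NF110 KO relative to NF110 KO, while the differences from WT were -0.54 in NF90+NF110 KO (adjusted p = 0.0857) and 0.40 in NF110 KO (adjusted p = 0.167). Of the 17 measured genes for ADP-ribose metabolism it was the only one called, and their median log2 fold change was -0.03.

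Promoter windows are shown for Pcmt1, Zswim6, Macrod1 and Gm16853, the called genes that have one in the RefSeq table (4 of 6), because their RNA was lower in NF90+NF110 KO than in NF110 KO inputs by FPKM. Each is 300 bases on the gene's own strand, 250 before and 50 after the annotated start, from GRCm38.p6: chr10:7681109-7681408 (minus) for Pcmt1, chr13:107890015-107890314 (minus) for Zswim6, chr19:7056518-7056817 (plus) for Macrod1 and chr9:21411671-21411970 (minus) for Gm16853. Capitals mark GC boxes, GGGCGG on either strand.
Pcmt1: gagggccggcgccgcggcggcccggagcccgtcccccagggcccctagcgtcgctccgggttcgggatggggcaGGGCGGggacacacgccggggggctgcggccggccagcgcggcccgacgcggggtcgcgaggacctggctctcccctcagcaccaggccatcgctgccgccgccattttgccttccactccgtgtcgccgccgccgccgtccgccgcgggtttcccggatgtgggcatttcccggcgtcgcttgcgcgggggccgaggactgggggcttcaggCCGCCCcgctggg
Zswim6: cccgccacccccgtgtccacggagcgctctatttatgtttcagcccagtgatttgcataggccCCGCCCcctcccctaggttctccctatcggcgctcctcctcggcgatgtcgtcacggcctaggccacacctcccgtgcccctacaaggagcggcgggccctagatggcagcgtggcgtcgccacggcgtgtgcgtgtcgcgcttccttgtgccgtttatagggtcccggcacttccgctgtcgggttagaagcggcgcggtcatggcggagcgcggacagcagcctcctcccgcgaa
Macrod1: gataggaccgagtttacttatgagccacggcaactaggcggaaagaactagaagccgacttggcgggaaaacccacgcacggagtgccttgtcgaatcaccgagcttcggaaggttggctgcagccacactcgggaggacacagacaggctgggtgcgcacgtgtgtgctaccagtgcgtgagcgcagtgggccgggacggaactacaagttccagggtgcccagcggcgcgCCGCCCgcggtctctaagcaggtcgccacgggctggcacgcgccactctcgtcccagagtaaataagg
Gm16853: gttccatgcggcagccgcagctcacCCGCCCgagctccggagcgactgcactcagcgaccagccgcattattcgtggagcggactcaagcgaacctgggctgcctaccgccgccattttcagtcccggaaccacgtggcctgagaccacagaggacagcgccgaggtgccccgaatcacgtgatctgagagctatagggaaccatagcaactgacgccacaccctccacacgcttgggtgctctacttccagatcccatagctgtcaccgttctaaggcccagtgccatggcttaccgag

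Pcmt1 held 2 GC boxes and each of the others held 1, and 35.7% of the 32851 windows in the table hold at least 1. CCAAT or its complement was in none of the 4 windows, against 37.4% of all windows. TATAAA or its complement occurred once, in Zswim6, against 13.6% of all windows. The windows held 44, 34, 28 and 23 CpG in the order printed, above the median of 7 over all windows. A match is a description of the letters and does not show that a factor binds.

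**Figure D3:**
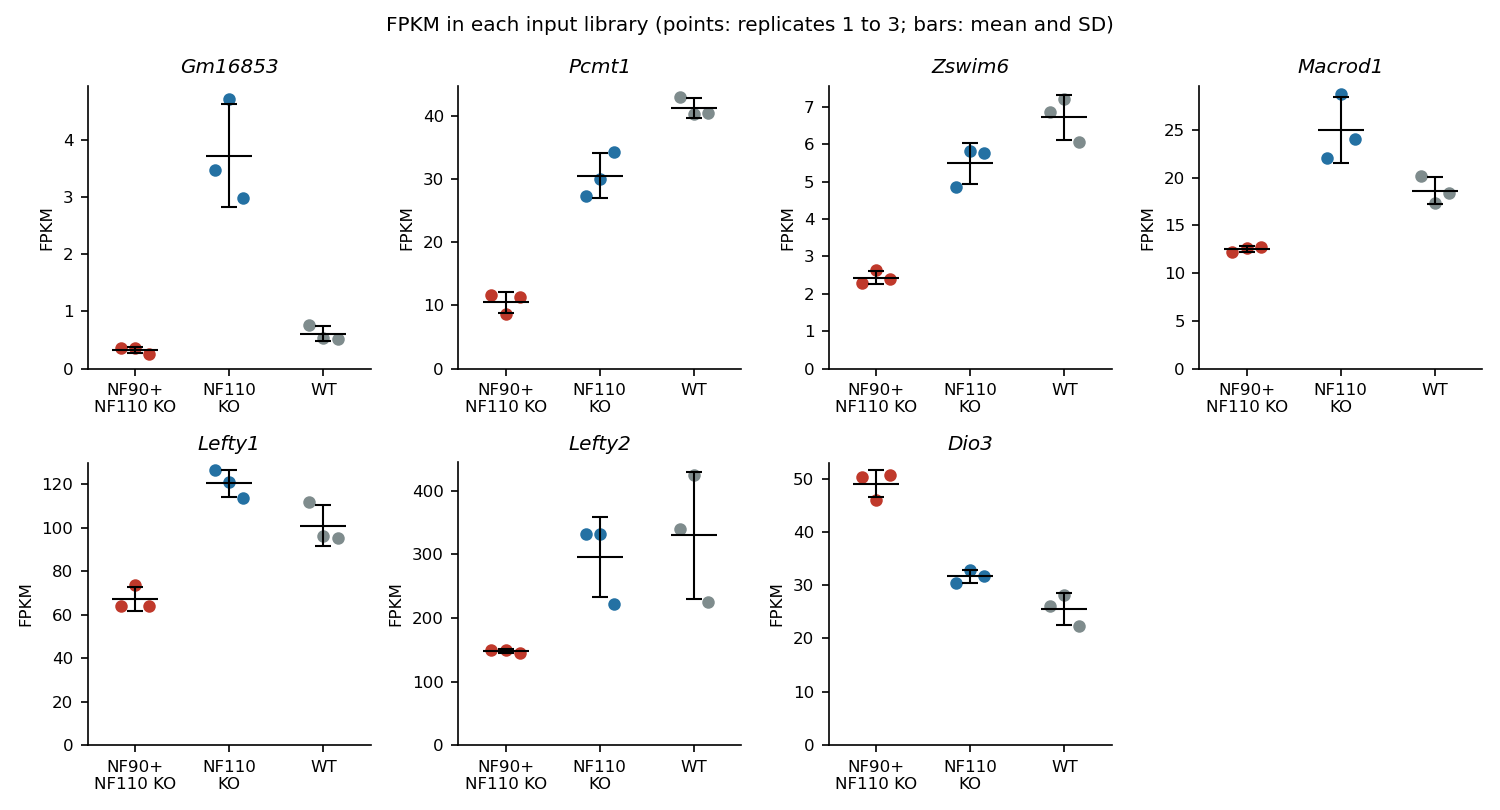
FPKM (y axis) of 5 called genes, Lefty2 and Dio3 in each input library of NF90+NF110 KO, NF110 KO and WT cells. Points are replicates 1 to 3 and bars are the mean and SD. Gm16853 is highest in NF110 KO, Pcmt1 and Zswim6 are lowest in NF90+NF110 KO and highest in WT, and Macrod1 and Lefty1 have WT between the KO genotypes.

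Nodal signalling was represented among the called genes by its secreted antagonist Lefty1. Nodal binds activin receptors with the co-receptor Tdgf1, and Smad2 and Smad3 carry the signal to the nucleus, where Foxh1 helps to activate targets that include Lefty1 and Lefty2. Lefty1, on chromosome 1 from 180935022 to 180938401, had 63.9, 73.7 and 64.1 FPKM in NF90+NF110 KO inputs, against 126, 121 and 114 FPKM in NF110 KO inputs. WT inputs had 112, 96.0 and 95.2 FPKM and overlapped neither group. Lefty1 fell by 0.83 on the log2 scale (SE 0.09, adjusted p = 0.0199, limma) relative to NF110 KO. The differences from WT were -0.58 in NF90+NF110 KO (adjusted p = 0.0528) and 0.25 in NF110 KO (adjusted p = 0.232).

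Lefty2, a close paralogue that neighbours Lefty1, had 150.02, 149.7 and 145 FPKM in NF90+NF110 KO inputs, against 333, 332 and 223 FPKM in NF110 KO inputs and 340, 425 and 225 FPKM in WT inputs. The KO groups did not overlap, but NF110 KO input 3 stood well below the other NF110 KO libraries, and the log2 fold change of -0.97 (SE 0.23) had an adjusted p of 0.312 by limma. Reads shared between Lefty1 and Lefty2 could have been split between them, so each value is uncertain to that extent. Of the 20 measured genes of the Nodal list, 1 was called, 3 were lower and none higher at an unadjusted p under 0.05, against 6.02% of all genes lower, and 4 were lower without overlap, against 8.45%. The medians were -0.10 for the list and -0.01 for all genes, and only Smad2 and Acvr2a had positive values, 0.13 and 0.06. Of the 12246 genes tested, 5781 had positive values.

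The ligand Nodal itself had 159.8, 140.4 and 151 FPKM in NF90+NF110 KO inputs, against 148, 170.1 and 168 FPKM in NF110 KO inputs, and these overlapped. Its log2 fold change was -0.11 (adjusted p = 0.669, limma), and that of the co-receptor Tdgf1 was -0.02 (adjusted p = 0.961). The transcription factor Foxh1 had 66.8, 79.5 and 66.9 FPKM in NF90+NF110 KO inputs, against 97.7, 102 and 82.5 FPKM in NF110 KO inputs, without overlap (log2 fold change -0.40, adjusted p = 0.472). Among receptors and signal carriers, Acvr2b, Acvr1b, Smad4 and Smad3 had log2 fold changes of -0.16, -0.26, -0.10 and -0.04, and none was called. The median of the Nodal list was -0.12 within both chromosome 6 levels.

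No p53 target was called, and 22 of 26 measured targets had positive log2 fold changes, against 5781 of the 12246 genes tested. p53 is a transcription factor activated by DNA damage and other stress, and Ccng1, Phlda3, Trp53inp1 and Cd80 are among its targets. Of 26 measured targets, 10 were higher and none lower at an unadjusted p under 0.05, against 4.42% of all genes higher, and 7 were higher without overlap, against 6.33%. The list's median log2 fold change was 0.32, against -0.01 for all genes.

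Ccng1, a cyclin gene, had 51.7, 35.1 and 46.4 FPKM in NF90+NF110 KO inputs, against 27.5, 23.8 and 30.5 FPKM in NF110 KO inputs, with a log2 fold change of 0.67 (adjusted p = 0.328, limma). Phlda3, an inhibitor of Akt signalling, had 64.9, 52.2 and 69.8 FPKM in NF90+NF110 KO inputs, against 38.5, 41.5 and 50.6 FPKM in NF110 KO inputs (0.51, adjusted p = 0.391). In both genes NF90+NF110 KO input 2, the library of that genotype with a high chromosome 6 level, was the lowest of the 3. The median of the list was 0.08 within the 3 libraries of high chromosome 6 level and 0.32 within the 3 of low level. With that level as a term, 3 of the 26 targets were called higher, Ccng1, Phlda3 and Cd80, against 0.22% of all genes. The part of the chromosome 6 state in the list's values was not tested further.

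The lists given below were described in the same way, and none of them had a called gene. Of 85 cytosolic ribosomal protein genes, 12 were higher and none lower at an unadjusted p under 0.05, against 4.42% of all genes higher, and 8 were higher without overlap, against 6.33%. The median of that list was 0.13. Rpl39 had 1350.3, 1206 and 1251 FPKM in NF90+NF110 KO inputs, against 1084, 950.2 and 1020.5 FPKM in NF110 KO inputs, with the smallest unadjusted p of the list (log2 fold change 0.32, adjusted p = 0.328, limma). The median of that list was 0.05 within high and 0.06 within low chromosome 6 level. Of 21 cholesterol synthesis genes, 5 were lower and none higher at an unadjusted p under 0.05, against 6.02% of all genes lower. However, 1 of the 21 was lower without overlap, against 8.45% of all genes. The median of the cholesterol list was -0.24 over all 6 libraries, -0.08 within high and -0.18 within low chromosome 6 level. Srebf2, the master regulator of the pathway, had a log2 fold change of -0.46 (adjusted p = 0.377, limma).

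Basement membrane genes had a median of -0.12, and 4 of 13 were lower without overlap, against 8.45% of all genes. Lamb2, a laminin chain, had 39.3, 39.8 and 37.9 FPKM in NF90+NF110 KO inputs, against 45.9, 53.1 and 50.03 FPKM in NF110 KO inputs (-0.34, adjusted p = 0.314, limma). Nid2 and Sparc, which encode a laminin-binding linker and a collagen-binding matrix protein, had log2 fold changes of -0.29 and -0.25 and adjusted p-values of 0.328 and 0.399. The list's median was -0.23 within high and -0.03 within low chromosome 6 level. The 60 histone genes had a median of -0.15, but 0.06 within high and -0.34 within low chromosome 6 level, and 1 of them was below an unadjusted p of 0.05, against 10.4% of all genes.

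Pluripotency genes, 30 in all, had a median of 0.06 over the 6 libraries and -0.02 with the chromosome 6 term. Their median was 0.04 within high and -0.01 within low chromosome 6 level. Of these genes, 1 was at an unadjusted p under 0.05, against 10.4% of all genes. The 12 measured interferon and double-stranded RNA response genes had a median of 0.03. Among them 1 was lower and none higher at an unadjusted p under 0.05, against 6.02% and 4.42% of all genes. The 19 microRNA processing genes had a median of -0.05. Ilf2, which encodes NF45, and Zfr, a relative of NF90, had log2 fold changes of 0.08 and 0.04 (adjusted p = 0.760 and 0.910, limma).

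Several imprinted genes had large differences that did not pass the test. Imprinting silences 1 parental copy of a gene. H19, a maternally expressed non-coding RNA, had 11.1, 24.1 and 13.2 FPKM in NF90+NF110 KO inputs, against 3.27, 3.76 and 2.00 FPKM in NF110 KO inputs (log2 fold change 2.05, SE 0.46, adjusted p = 0.296, limma). The groups did not overlap, and WT inputs spread from 0.464 to 4.85 FPKM. Slc22a18, a transporter gene of the imprinted region at the end of chromosome 7, had 0, 0.188 and 0.176 FPKM in NF90+NF110 KO inputs, against 2.79, 2.94 and 1.35 FPKM in NF110 KO inputs (-1.55, SE 0.22, adjusted p = 0.104). It was included only through the NF110 KO libraries, where it is high, so this difference is a description. The reads behind these were 0, 3 and 3 in NF90+NF110 KO and 44, 39 and 19 in NF110 KO. Its neighbour Phlda2, a placental growth suppressor, had a log2 fold change of -1.27 (adjusted p = 0.328) without overlap.

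Dio3, an imprinted gene for an enzyme that inactivates thyroid hormone, had 50.4, 46.1 and 50.6 FPKM in NF90+NF110 KO inputs, against 30.5, 32.9 and 31.6 FPKM in NF110 KO inputs and 26.0, 28.1 and 22.2 FPKM in WT inputs. The 3 groups did not overlap, and the log2 fold change between the KO genotypes was 0.61 (SE 0.09, adjusted p = 0.107, limma). Against WT, Dio3 rose in NF90+NF110 KO by 0.92 (adjusted p = 0.00971). Of 6 measured genes of its cluster, 3 were higher without overlap, against 6.33% of all genes, and the median was 0.17. Igf2r, the receptor that clears IGF2, had 36.7, 35.8 and 34.0 FPKM in NF90+NF110 KO inputs, against 49.2, 50.2 and 45.0 FPKM in NF110 KO inputs (-0.43, adjusted p = 0.177). The 16 measured genes of the list of imprinted genes outside the Dio3 cluster, H19, Phlda2 and Igf2r among them, had a median of -0.06.

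Among uncalled genes without overlap, with an unadjusted p under 0.01 and a mean of at least 1 FPKM over the 6 inputs, those with the 10 highest and the 10 lowest log2 fold changes were named, leaving out predicted and clone-named genes. On the higher side, Zscan4c belongs to the genes of the 2-cell embryo that a small share of ESCs expresses at any time. It had 2.21, 1.22 and 2.77 FPKM in NF90+NF110 KO inputs, against 0.164, 0.189 and 0.687 FPKM in NF110 KO inputs (1.17, SE 0.22, adjusted p = 0.213, limma), and NF90+NF110 KO input 2 was again the lowest of its genotype. Zscan4c was included only through the NF90+NF110 KO libraries, where it is high, so its difference is a description. Zscan4 genes are near-identical copies, so reads may have been split among them. Just 3 of the 22 genes on the 2-cell list were measured, so no summary of that list is given. The remaining genes were Tek (0.96), an angiopoietin receptor, Serpine2 (0.93), a protease inhibitor, Guca1a (0.84), Zfp365 (0.71), the homeobox gene Meis3 (0.65), Stat4 (0.65) and the GTPase gene Rac3 (0.64), beside H19 and Ccng1, where each value in brackets is a log2 fold change.

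On the lower side the genes named by this rule included the germ-cell RNA-binding protein gene Ybx2, which had 5.67, 6.00 and 8.55 FPKM in NF90+NF110 KO inputs, against 13.2, 12.5 and 12.4 FPKM in NF110 KO inputs (-0.84, SE 0.13, adjusted p = 0.111, limma). Rnf157, a ubiquitin ligase gene, had 0.665, 2.46 and 0.756 FPKM in NF90+NF110 KO inputs, against 5.91, 7.08 and 3.30 FPKM in NF110 KO inputs (-1.52, adjusted p = 0.265). In each genotype its libraries of high chromosome 6 level were higher than those of low level. Ap3b2, Aldh1b1, Khdc3 and Tspo2 had log2 fold changes of -1.0, -0.94, -0.87 and -0.83. Insl3 (-1.39) had no read in any of the 6 inputs by the recovered counts, so its FPKM values are not backed by them.

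Tests on the recovered reads called the genes above other than Gm16853, and DESeq2 called more. edgeR's quasi-likelihood test on recovered reads called 6 genes (0.049%), 1 higher (0.00817%) and 5 lower (0.0408%). Of these 5 were shared with limma, and the other was Lonrf2 (log2 fold change -2.02, adjusted p = 0.0226), which was included only through the NF110 KO libraries, where it is high. DESeq2 called 80 of 12187 genes (0.656%), 17 higher (0.139%) and 63 lower (0.517%). The authors' deposited table held 140 of 14122 genes with an adjusted p under 0.05 (0.991%), 41 higher (0.29%) and 99 lower (0.701%), and 69 of them were among the DESeq2 calls. In the authors' deposited table Pcmt1 had a log2 fold change of -1.37, Zswim6 -1.07, Macrod1 -0.88 and Lefty1 -0.79.

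With the chromosome 6 level as a term, limma called 78 genes (0.637%), 27 higher (0.22%) and 51 lower (0.416%). These included all 6 genes called without it, and 1 of the 78 lay on chromosome 6. Dio3 (0.61, adjusted p = 0.0153), Slc22a18 (-1.44, adjusted p = 0.0103), Rnf157 (-1.25, adjusted p = 0.00156), H19 (2.36, adjusted p = 0.0424) and Zscan4c (1.03, adjusted p = 0.0230) passed in that fit. Of the 78 genes, 5 were included only through the genotype in which they are high, Slc22a18 and Zscan4c among them, so their calls add no support. Both fits used the same libraries, and 44 of the 78 were also among the DESeq2 calls.

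Rn45s, the ribosomal RNA precursor transcript, had 1065, 914 and 1025 FPKM in NF90+NF110 KO inputs, against 1451, 1462 and 1745 FPKM in NF110 KO inputs and 1383, 1423 and 1651 FPKM in WT inputs. Its log2 fold change was -0.63 (adjusted p = 0.177, limma), without overlap. The libraries were made with ribosomal RNA depletion, and the part of depletion in this value, and of this value in the other genes, was not tested.

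Immunoprecipitated RNA was also measured in these genotypes. Those libraries came from the same experiment, so they are not independent cells, and their level combines abundance with recovery. NF90+NF110 KO cells lack both targets of the antibody, whereas NF110 KO cells keep NF90. These IPs therefore differ in what the antibody can recover, and the part of recovery in their differences was not tested. Of the 6 called genes, 5 were also called between NF90+NF110 KO and NF110 KO IPs, in the same direction, where limma called 11 of 12246 genes (0.0898%), 2 higher (0.0163%) and 9 lower (0.0735%). Pcmt1 had 9.14, 7.88 and 8.94 FPKM in NF90+NF110 KO IPs, against 25.4, 30.0 and 32.1 FPKM in NF110 KO IPs, a log2 fold change of -1.64 (SE 0.10, adjusted p = 0.000441). Zswim6 and Macrod1 had -1.07 and -0.91 (adjusted p = 0.0111 and 0.0395). Gm16853, among these 5, had -1.51 by FPKM (adjusted p = 0.0167), with 0 to 4 recovered reads per library. On those reads its value was 0.11 by edgeR (adjusted p = 0.984). It was included only through the NF110 KO inputs, where it is high, so its repeated call adds no support.

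Lefty1 had a log2 fold change of -0.68 between the IPs (adjusted p = 0.105, limma), with 68.8, 80.6 and 69.2 FPKM in NF90+NF110 KO IPs, against 132, 118 and 104 FPKM in NF110 KO IPs. Called in IPs but not in inputs were Dio3 (0.85, adjusted p = 0.0395), Rn45s (-0.90, adjusted p = 0.0395), Chchd1 (-0.69, adjusted p = 0.0167), Gpc3 (-0.73, adjusted p = 0.0395), Lonrf2 (-1.08, adjusted p = 0.0395) and Ndufaf5 (-0.71, adjusted p = 0.0406). Chchd1, a mitochondrial ribosome protein gene, had overlapping inputs with a log2 fold change of 0.10 (adjusted p = 0.677), and the difference between its IP and input changes was not tested. The IP count depended on single libraries, since limma called 164 genes without NF90+NF110 KO IP 2, and 1 gene without each of NF90+NF110 KO IPs 1 and 3 and NF110 KO IPs 1 and 2.

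**Figure D4:**
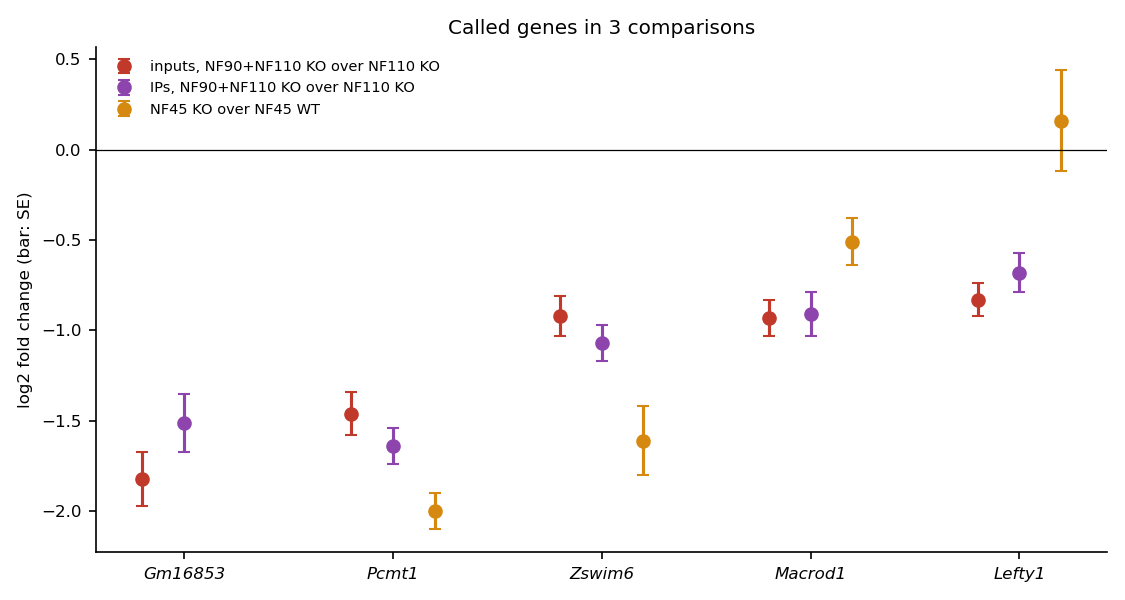
Log2 fold change with its SE (y axis) of 5 called genes between NF90+NF110 KO and NF110 KO inputs, between the same IPs, and between NF45 KO and NF45 WT cells. Pcmt1, Zswim6 and Macrod1 lie below 0 in all 3 comparisons, Lefty1 lies below 0 in inputs and IPs, and Gm16853 was not tested in the NF45 libraries.

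NF45 KO cells lack the dimer partner of NF90 and NF110 and share no libraries with the inputs. Of the 6 called genes 5 were measured there and 3 were called, in the same direction as in the inputs, against 27.6% of 11481 genes called in either direction. Pcmt1 had 5.401 and 6.20 FPKM in NF45 KO, against 27.5 and 24.8 FPKM in NF45 WT, a log2 fold change of -2.0 (SE 0.10, adjusted p = 0.00589, limma). Zswim6 had 1.85 and 1.91 FPKM in NF45 KO, against 6.35 and 9.46 FPKM in NF45 WT (-1.61, adjusted p = 0.00964). Macrod1 had 2.99 and 2.85 FPKM in NF45 KO, against 4.03 and 5.22 FPKM in NF45 WT (-0.51, adjusted p = 0.0497).

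Lefty1 was not called in NF45 KO, with a log2 fold change of 0.16 (adjusted p = 0.700, limma). Lefty1 had 14.002 and 14.1 FPKM in NF45 KO, against 9.15 and 17.0 FPKM in NF45 WT, and the groups overlapped. Of the 78 genes called with the chromosome 6 term, 75 were measured in the NF45 libraries. There 37 of the 75 were called, 30 in the same and 7 in the opposite direction, against 27.6% of 11481 genes called in either direction. These 37 hold genes included only through the genotype in which they are high, such as Slc22a18 and Zscan4c, which add no support. Dio3 had 29.3 and 27.7 FPKM in NF45 KO, against 8.06 and 16.0 FPKM in NF45 WT (1.25, adjusted p = 0.0464, limma). Slc22a18 was higher in NF45 KO (1.24, adjusted p = 0.00773), opposite to its input value. The NF45 count was 1 or 0 without NF45 KO library 1 or 2, and centring each library on its median turned 1338 higher and 1833 lower genes into 1663 higher and 1455 lower.

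**Figure D5:**
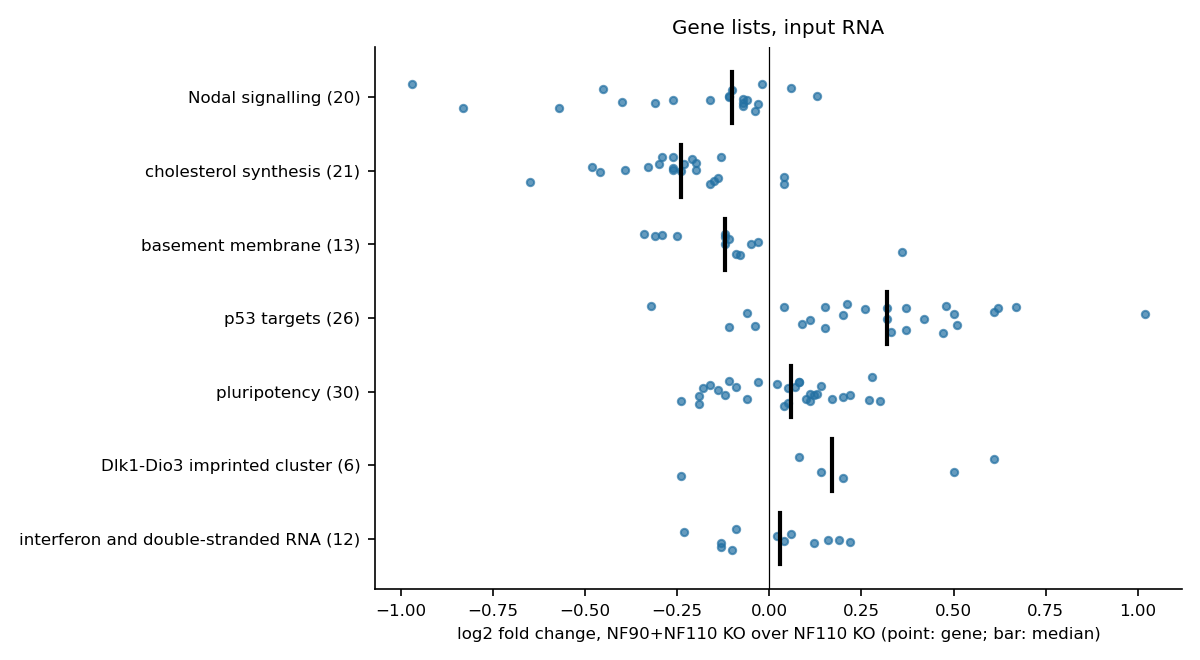
Log2 fold change (x axis) of NF90+NF110 KO over NF110 KO input RNA for the measured genes of 7 lists, with the number of genes in brackets. Points are genes and bars are medians. The medians are 0.32 for p53 targets, -0.24 for cholesterol synthesis genes and 0.06 for pluripotency genes. With the chromosome 6 term they were 0.23, -0.16 and -0.02, in that order.

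The strength of the calls differed between genes. Pcmt1 was called in all 9 fits that each left out 1 input, with adjusted p-values from 0.00449 to 0.0307 (limma). Gm16853 was also called in all 9 on the FPKM scale. However, it was included only through the NF110 KO libraries, where it is high, so these calls add no support. For Zswim6 the call held when WT replicate 3 or NF90+NF110 KO replicate 2 was left out, and was lost in the other 7 fits, with adjusted p-values up to 0.237. Lefty1 lost its call when NF90+NF110 KO replicate 1 or 3, NF110 KO replicate 1 or 2, or WT replicate 2 was left out (adjusted p up to 0.177). Macrod1 lost it for NF90+NF110 KO replicate 1 or 3, NF110 KO replicate 2 or 3, or WT replicate 2 (up to 0.173). In a fit of the 6 KO inputs without WT, limma called 0 genes, with 1083 at an unadjusted p under 0.05. The direction of Pcmt1, Zswim6, Macrod1 and Lefty1 between the KO inputs was the same in every alternative that gave a value. The KO genotypes did not overlap in these genes, so leaving out a library could not reverse them. Their constant direction therefore adds no support to the calls.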

How the data were processed

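The data are gene-level tables of input and IP RNA from RIP-seq and of poly(A) RNA from the NF45 lines. The deposited values are FPKM and normalised counts. Per the file headers the normalised counts and the comparison columns, with log2 fold changes and adjusted p-values, were calculated by the authors with DESeq2. The normalised count signal was used as deposited by the authors. Per the submitters' processing notes, which give no role or order, the build was mm10 and the tools included HTSeq 0.6.1, Cuffnorm, TopHat2 2.0.10 and Cufflinks 2.2.1.

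Here limma 3.58.1 (R 4.3.3, trend and robust moderation) was fitted on log2(FPKM + 1) over all 9 inputs, with contrasts between genotypes. The 9 IPs and the 4 NF45 libraries were fitted separately. The input and IP fits tested the 12246 genes chosen on the 6 KO inputs, and the NF45 fit tested genes with an FPKM of at least 1 in at least 2 of its libraries. All p-values were adjusted over all tested genes by Benjamini-Hochberg. Normalised counts gave whole reads (within 0.1) for 100.0% of values above 0, and edgeR 4.0.16 and DESeq2 1.42.0 were run on those reads as alternatives. DESeq2 gave no adjusted p for 59 genes. The fits were tested on simulated data. Members, gene lists, named-gene rules and alternatives were chosen with earlier results of these data known. Named genes were the called genes, among uncalled genes without overlap, at an unadjusted p under 0.01 and a mean of at least 1 FPKM, the 10 next in each direction without predicted or clone names, up to 4 genes with the smallest p per list and all Nodal list genes, while Rn45s and genes called in IPs were added after values were seen. Coordinates and promoters are from RefSeq (GRCm38.p6), to which 21146 of 22330 symbols matched directly and 22216 with synonyms. Some genes, 1 of the called genes among them, are not reported here.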

Additional observations from a re-analysis of the deposited data

How the results depend on the processing

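The count of 6 genes called between the inputs stayed within 1.5 times with the other scalings, pseudocount and low-value filters, with edgeR, and with a replicate block, which also gave 6. That block put 1778 genes at an unadjusted p under 0.05, against 1278 without it (limma). Correlations of deviations ran from -0.489 to 0.669 for same-numbered libraries and from -0.74 to 0.601 for differently numbered ones. They cannot show whether same-numbered libraries were prepared together. The count of called genes was 80 with DESeq2, 78 with the chromosome 6 term and 2 at a minimum fold of 1.2. It was 0 with the 6 KO inputs alone, and 2 to 8 with 1 library left out. For the IPs, 11 became 4 with no filter on low values, 7 at an FPKM of at least 5, 6 with quantile normalisation, 4 on normalised counts, 4 with median-ratio size factors in edgeR and 367 with DESeq2, and 1 to 164 with 1 library left out. The replicate block gave 8. For NF45, 3171 became 0 to 6184 with 1 library left out and 2960 with the replicate block. The causes were not tested.

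Gm16853 reversed on the counts. Its log2 fold change between inputs was 2.00 on normalised counts, 4.62 with each edgeR setting and 3.91 with DESeq2, against -1.82 on FPKM. Between NF110 KO and WT inputs it was -1.41, -3.77 and -3.78, against 1.54 on FPKM, and between IPs 0.44, 0.11 and 0.09, against -1.51. Its recovered reads, 0 to 4 per library, are too few for a direction. Lefty1 in NF45 KO was -0.26 without NF45 WT replicate 1 and 0.57 without NF45 WT replicate 2, against 0.16. The inputs held 9532048 to 11927305 reads each.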
